A study of Homo sapiens with 4 samples.

Results

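The interleukin-1 family genes examined here are 9 genes picked by name, 6 of cytokines (IL1A, IL1B, IL1RN, IL18, IL33 and IL36G) and 3 of receptors (IL1R1, IL1R2 and IL1RAP), and all 9 had a row among the 29437 genes listed in each table. They were measured by RNA sequencing in CAL27, an established cell line from a human squamous carcinoma of the mouth, in 2 libraries labelled negative control and 2 labelled CCL20-overexpression. CCL20 is a chemokine that draws in immune cells. The overexpression line was made by lentivirus, and RNA was taken after 48 hours; what the control cells carried, and whether either line is 1 clone, is not given in the sources used here. The labels do not say that replicates came from separate cultures, so p-values measure only the spread between these libraries, which may be technical.

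Cytokines of this family alarm neighbouring cells when an epithelium is damaged or infected. Interleukin-1 alpha (IL1A) and interleukin-1 beta (IL1B) bind the receptor IL1R1, which then recruits the accessory chain IL1RAP and signals through MYD88 and IRAK kinases to NF-kB. The antagonist IL1RN occupies IL1R1 without signalling, and IL1R2 is a decoy that binds the cytokines but cannot signal. Interleukin-18 (IL18) has its own receptor and a secreted inhibitor, IL18BP. IL1B and IL18 are made as inactive precursors that caspase-1 cuts, whereas the IL1A precursor is already active.

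Total counts were 13681862 to 17860695 per library. CCL20, the check of the labels, was at 8.62 and 7.10 FPKM (reads scaled for exon length and for the library's total) in the control libraries and 15.2 and 11.3 FPKM in the overexpression libraries, a 1.94-fold difference in edgeR (adjusted p = 0.0143). Of the 200 coding genes nearest to CCL20 in mRNA length, 138 had a larger log2 fold change. The rise thus does not set CCL20 apart from genes of its length and is a weak check of the labels. Markers of squamous epithelium summed to 663 to 805 FPKM, with KRT5 leading, though KRT14 stood at only 0.712 to 1.11 FPKM. Of the markers of leukocytes, which also make interleukin-1 in tissue, PTPRC had 0, 1, 0 and 0 counts. Of 7 macrophage and monocyte markers, CD163, LYZ, AIF1 and TYROBP had no row and CD68 had at most 2 counts, while CD14 was at 1.05 to 1.73 FPKM and CSF1R at 1.68 to 2.98 FPKM.

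Start regions of the family were searched for short sequences bound by NF-kB and AP-1, the factors through which interleukin-1 acts, and the matches are shown because they are what these members share and do not share there. Windows of 300 bases around RefSeq starts (GRCh38.p14), most of each upstream, existed for 8 of the 9 members, 16 windows in all; IL18 had no entry. The AP-1 letters TGANTCA, which read the same on both strands, occurred in IL1A and IL1RN. The 10-letter NF-kB pattern occurred in IL1RN, and the 9-letter one, GGGANTTCC, occurred on the opposite strand in IL1R2; these patterns can overlap each other. Each line gives 27 to 30 bases, 5′ to 3′ on the gene's strand, with the match in capitals.
IL1A, chr2:112784489-112784515, minus strand: cgaagaagacTGACTCAggcttaagct
IL1A, chr2:112784439-112784465, minus strand: cattggcgttTGAGTCAgcaaaggtat
IL1RN, chr2:113117738-113117764, plus strand: tctgctagccTGAGTCAccctcctgga
IL1RN, chr2:113127491-113127520, plus strand: aatgcgaggaGGGTATTTCCgcttctcgca
IL1R2, chr2:101991897-101991925, plus strand: cacccggttaGGAAATCCCagctcccaag
Of the members' 16 windows, 3 held TGANTCA, 2 the 10-letter NF-kB pattern and 1 GGGANTTCC, and windows of a gene can share a match. Over all 35116 RefSeq windows, 7.71% held TGANTCA, 1.91% held the 10-letter NF-kB pattern and 1.85% held GGGANTTCC, on either strand. Among windows of tested genes the shares were 5.26%, 2.19% and 2.16%. No window of IL1B, IL33, IL36G, IL1R1 or IL1RAP held any of these letters, which says only that they are not in these windows. All 5 matches lie inside the gene as annotated by GENCODE 29, downstream of its outermost start.

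The agonists IL1B and IL1A were by far the most abundant members, and the antagonist and the receptors were low. Mean FPKM over the 4 libraries ran from 90.3 for IL1B and 56.2 for IL1A to 6.10 for IL18, 5.92 for IL1RAP, 2.07 for IL1R1, 1.34 for IL1R2, 0.869 for IL1RN, 0.538 for IL36G and 0.0197 for IL33. In this order IL1B lay above IL1A, IL1A above IL18, IL1R2 above IL1RN, and IL36G above IL33 with no overlap of their ranges over the libraries. IL1RAP lay above IL1R1, and IL1RN above IL36G, within each library, although the ranges over the 4 libraries overlapped. The order of IL18 and IL1RAP, and that of IL1R1 and IL1R2, turned between the control and the overexpression libraries. FPKM here divides by all annotated exons of a gene, which is 3096 nt for IL1B against 1631 nt in its principal mRNA. Per kilobase of principal mRNA the mean of IL1B was 171 and that of IL1A 56.2, with the order of the 9 genes unchanged.

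**Figure D1:**
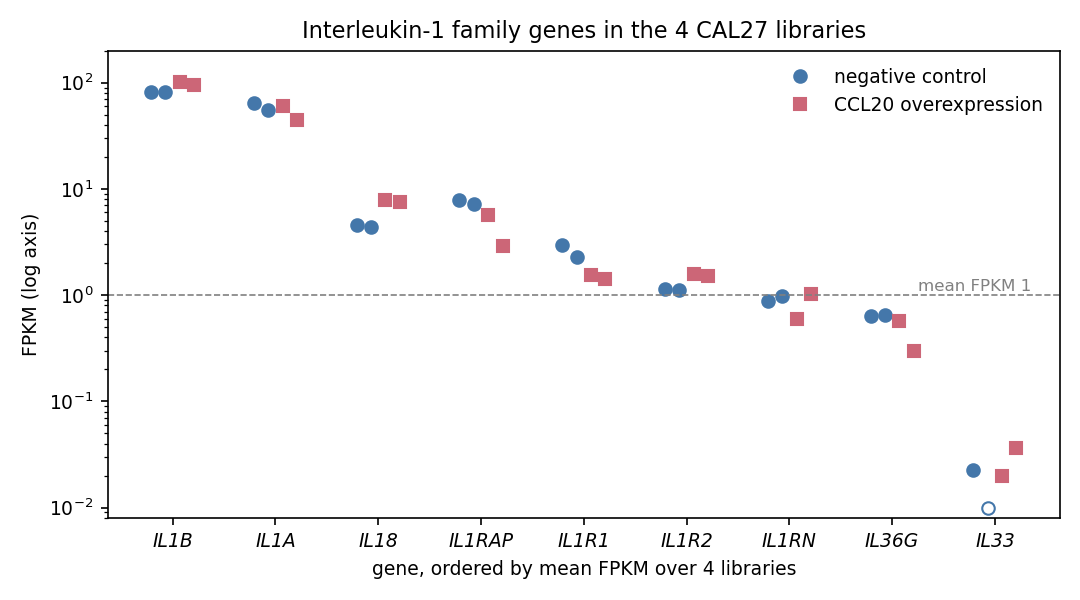
FPKM of each member (log axis) in the 2 negative control libraries (circles) and the 2 CCL20 overexpression libraries (squares), ordered by mean; the open circle at the bottom marks IL33 at 0 counts. IL1B and IL1A lie between 44.8 and 101 FPKM in every library, and IL1RN, IL36G and IL33 have means under 1 FPKM.

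Between the groups, 1 of the 6 members tested was past the threshold: IL18 was higher with CCL20 overexpression. Genes were called by edgeR (quasi-likelihood, Benjamini-Hochberg adjusted p under 0.05) among 12168 genes with a mean of at least 1 FPKM. Of these genes 32.2% were called, 16.5% as higher and 15.7% as lower, so 1 call among 6 members is not above the background. IL1RN, IL33 and IL36G fell under the filter and were not tested in this fit. In 5 of these 6 members the FPKM of one group lay wholly above the other, 3 higher and 2 lower with overexpression; over all tested genes this held for 72.7%, 25.8% higher and 46.9% lower. The median log2 fold change of the 6 members was 0.24, beside 0.0019 over all genes tested.

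The agonist IL1B (ENSG00000125538; GRCh38 chromosome 2, 112829751 to 112836903, minus strand) was at 82.3 and 82.6 FPKM in the control libraries and at 101 and 95.5 FPKM in the overexpression libraries, from 3488 to 4990 counts. Both overexpression libraries lay above both controls. The log2 fold change was 0.45 (SE 0.15) and missed the threshold in edgeR (adjusted p = 0.0518), while DESeq2 put it past it (adjusted p = 0.0432). Where libraries were scaled by the sum of length-adjusted counts, as in TPM, the value changed sign to -0.04.

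IL1A (ENSG00000115008; chromosome 2, 112773915 to 112784590, minus strand), which lies beside IL1B and which keratinocytes hold ready for release, was at 64.3 and 55.0 FPKM in the controls and at 60.6 and 44.8 FPKM with overexpression. The groups overlapped, with 1 overexpression library between the controls and 1 below both. Its log2 fold change was 0.02 (SE 0.18; edgeR adjusted p = 0.938), with the sign turning to -0.18 on library totals and to -0.46 on the TPM scale.

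IL18 (ENSG00000150782; chromosome 11, 112143251 to 112164117, minus strand), which drives interferon-gamma production in lymphocytes, was at 4.56 and 4.37 FPKM in the controls and at 7.91 and 7.58 FPKM with overexpression, from 164 to 336 counts. The replicates of each group lay close together and the groups far apart. This was a 2.0-fold rise (log2 fold change 1.0, SE 0.19, edgeR adjusted p = 0.00813). The call ended without negative control replicate 1 (adjusted p = 0.120) and without negative control replicate 2 (adjusted p = 0.124), at log2 fold changes of 1.03 and 0.97. It also ended on the TPM scale (log2 fold change 0.51, adjusted p = 0.0819).

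IL1RN (ENSG00000136689; chromosome 2, 113107214 to 113134016, plus strand) had 39 and 57 counts in the controls and 30 and 56 with overexpression, or 0.875, 0.980, 0.60 and 1.02 FPKM. In FPKM the overexpression libraries held both the lowest and the highest value, while the highest count, 57, was in a control library. IL36G (ENSG00000136688; chromosome 2, 112973203 to 112985665, plus strand), an epithelial cytokine of the interleukin-36 branch, had 12 and 16 counts in the controls and 12 and 7 with overexpression, or 0.636, 0.649, 0.566 and 0.301 FPKM. IL33 (ENSG00000137033; chromosome 9, 6215786 to 6257983, plus strand), a nuclear alarmin of barrier cells, had 1, 0, 1 and 2 counts, under the 3 counts that a library with none could still hide. A fit of every gene with a count, in which 17.6% were called, 9.09% higher and 8.51% lower, called 3 of the 9 members, IL18 and IL1B as higher and IL1RAP as lower. It gave log2 fold changes of 0.07 for IL1RN and -0.33 for IL36G (edgeR adjusted p = 0.923 and 0.795). No fold is given for IL33 at this depth.

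Of the receptors, IL1R1 (ENSG00000115594; chromosome 2, 102064544 to 102179874, plus strand), the signalling chain, was at 2.99 and 2.31 FPKM in the controls and at 1.55 and 1.41 FPKM with overexpression, from 290 and 292 to 169 and 169 counts. Both overexpression libraries lay below both controls. The log2 fold change of -0.63 (SE 0.21) missed the threshold (edgeR adjusted p = 0.0542). It was past it on library totals (-0.83, edgeR adjusted p = 0.0212) and on the TPM scale (-1.12, edgeR adjusted p = 0.0107). DESeq2 did not put it past it (-0.63, adjusted p = 0.0711). The decoy IL1R2 (ENSG00000115590; chromosome 2, 101991844 to 102028544, plus strand), its neighbour on the chromosome, was at 1.14 and 1.13 FPKM in the controls and at 1.59 and 1.50 FPKM with overexpression, on 48 to 78 counts. These groups did not overlap either, in the opposite direction (log2 fold change 0.65, SE 0.28, edgeR adjusted p = 0.104).

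IL1RAP (ENSG00000196083; chromosome 3, 190514051 to 190659750, plus strand), the chain shared by the receptors for interleukin-1, interleukin-33 and interleukin-36, was at 7.81 and 7.19 FPKM in the controls and at 5.74 and 2.93 FPKM with overexpression. The overexpression replicates differed from each other more than the nearer of them differed from the controls. Its log2 fold change was -0.60 (SE 0.27, edgeR adjusted p = 0.113). On library totals it was -0.79 (edgeR adjusted p = 0.0603), and on the TPM scale it was past the threshold at -1.06 (edgeR adjusted p = 0.0383). On TMM-scaled counts the log2 fold change was -1.10 without overexpression replicate 1 and -0.23 without overexpression replicate 2, so the size rests on the second replicate. Annotated principal transcripts of IL1RAP run from 2244 to 4875 nt, and gene counts do not separate the short from the long.

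Ratios taken within a library do not depend on how libraries are scaled, but they are not adjusted for mRNA length. The ratio of IL1R2 to IL1R1 was 0.382 and 0.489 in the controls and 1.02 and 1.06 with overexpression, so both overexpression libraries lay above both controls. The level of the ratio depends on the gene length used. Per kilobase of principal mRNA, IL1R2 was at 2.35 and 2.33 in the controls and 3.27 and 3.10 with overexpression, and IL1R1 at 4.12 and 3.18 against 2.14 and 1.95. On both scales the decoy stood under the signalling receptor in the controls; with overexpression it stood above it per principal mRNA and close to it in FPKM. The mean log2 ratio differed by 1.27. An exact two-sided permutation test over the libraries gave p = 0.333, the smallest that 2 against 2 allow. IL1R2 and IL1R1 differ in mRNA length, at 1491.5 and 5143 nt. The 200 tested coding genes nearest in length to each had median log2 fold changes of 0.61 and -0.50. With each library's length trend taken out, as described below, IL1R2 was at 0.08 and IL1R1 at -0.19. With exonic length in place of mRNA length, they were at 0.32 and -0.33. The ratio of IL1RN to the sum of IL1A and IL1B was 0.00597 and 0.00713 in the controls and 0.00372 and 0.00726 with overexpression, overlapping between groups (log2 difference -0.33, exact permutation p = 1.0). The antagonist transcript was thus under 0.01 of the agonist transcripts in all 4 libraries. A ratio chosen after its values were seen, IL1B to IL1A, was 1.28 and 1.50 in the controls and 1.66 and 2.13 with overexpression (log2 difference 0.44, exact permutation p = 0.333, the smallest possible).

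**Figure D2:**
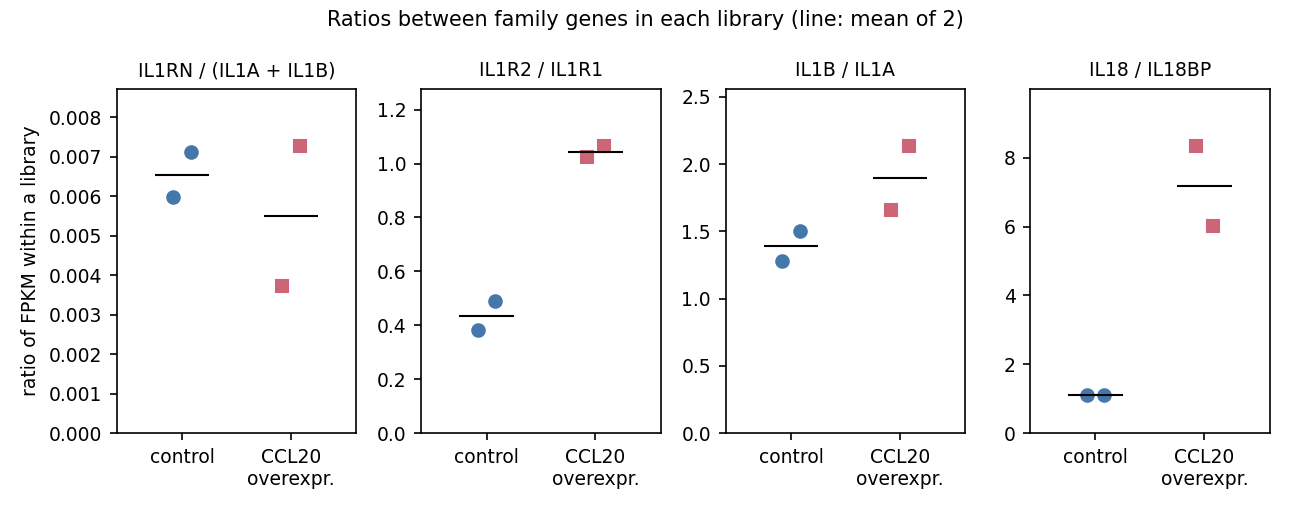
Ratios of FPKM between family genes within each library, with 2 negative control libraries (circles), 2 CCL20 overexpression libraries (squares) and a line at the mean of each group; every axis starts at 0. IL1R2 to IL1R1 lies at 0.382 and 0.489 against 1.02 and 1.06, and IL18 to IL18BP at 1.1 and 1.11 against 8.33 and 6.01. IL1RN to the agonists overlaps. The ratios are not adjusted for mRNA length, which is 1491.5 nt for IL1R2 and 5143 nt for IL1R1.

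The changes of the members followed their mRNA length. From the shortest to the longest, the log2 fold change fell at each step: IL18 (971 nt) 1.0, IL1R2 (1491.5 nt) 0.65, IL1B (1631 nt) 0.45, IL1A (2124 nt) 0.02, IL1RAP (4733 nt) -0.60 and IL1R1 (5143 nt) -0.63. Over these 6 genes Spearman's rho was -1.0, beside -0.73 over the 10571 coding genes tested. Genes share the 4 libraries and are not replicates. The last step, from IL1RAP to IL1R1, is smaller than the SE of either (0.27 and 0.21). The order also rests on the length used. By exonic length IL1A (2124 nt) is shorter than IL18 (2628 nt), and IL1RAP (11558 nt) is longer than IL1R1 (7083 nt). With the mRNA length offset described below, rho over the 6 genes was -0.83. Averaged over counted reads, the exonic length of the gene was 6226 and 6130 nt in control cells against 5313 and 5013 nt with overexpression.

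Genes of the same length moved alike. Among the 200 tested coding genes nearest in mRNA length, the median log2 fold change was 0.97 for IL18, 0.61 for IL1R2, 0.51 for IL1B, 0.30 for IL1A, -0.39 for IL1RAP and -0.50 for IL1R1. The member stood above its neighbours' median by 0.03 for IL18 and by 0.04 for IL1R2, and below it by 0.05 to 0.28 for the others. Of the neighbours of IL18, 76.0% were themselves called higher. Of those of IL1R1, 34.0% were called lower.

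**Figure D3:**
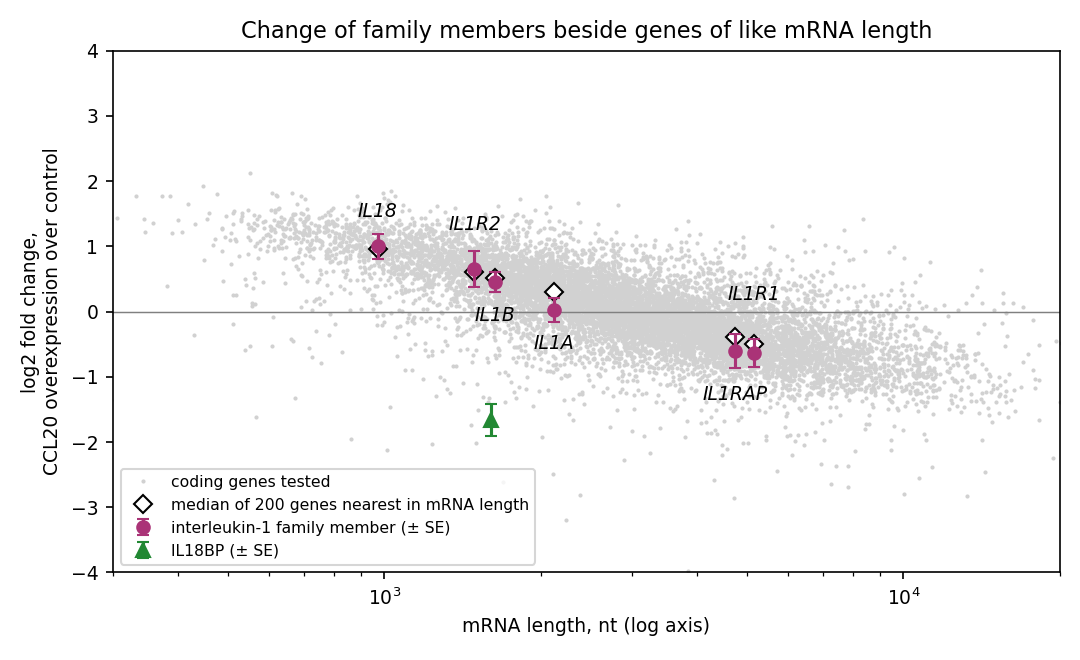
Log2 fold change (CCL20 overexpression over negative control) against principal mRNA length (log axis) for the 6 tested members (circles, ± SE), the median of the 200 coding genes nearest in length to each (open diamonds), IL18BP (triangle, ± SE) and all coding genes tested (grey; the axis leaves out values beyond 4 in size). The members lie within 0.28 of the diamonds, and IL18BP at -1.66 lies far below the genes of its length.

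With the length trend of each library fitted as a spline and used as an offset, 0 of the 6 members were past the threshold in edgeR, and 0 had an unadjusted p under 0.05. Of the 10571 coding genes in this fit 6.82% were called, 3.63% as higher and 3.19% as lower. The log2 fold changes with the offset were 0.17 for IL18 (SE 0.19, adjusted p = 0.645), 0.08 for IL1R2, -0.04 for IL1B, -0.22 for IL1A, -0.23 for IL1RAP and -0.19 for IL1R1, with adjusted p from 0.529 to 0.893 for the last 5. These sizes depended on the length and the genes used. With exonic length as the offset, IL18 was at 0.61 (edgeR adjusted p = 0.0615), IL1R2 at 0.32 and IL1B at 0.13. IL1A was then at -0.41, IL1RAP at -0.10 and IL1R1 at -0.33. Fitted on every coding gene with a count, the mRNA length offset left IL18 at 0.57 (edgeR adjusted p = 0.0667). With the mRNA length offset on the tested genes the members' SE lay between 0.14 and 0.27. A change has to be several times its SE to pass the threshold. IL1RL2, a relative of the family, missed it at -0.61 (SE 0.30, edgeR adjusted p = 0.269). Member changes well above their SE could thus be missed. Without overexpression replicate 1, IL1A and IL1RAP were past the threshold with the offset, at -0.45 and -0.66 (edgeR adjusted p = 0.000679 and 4.00e-06).

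**Figure D4:**
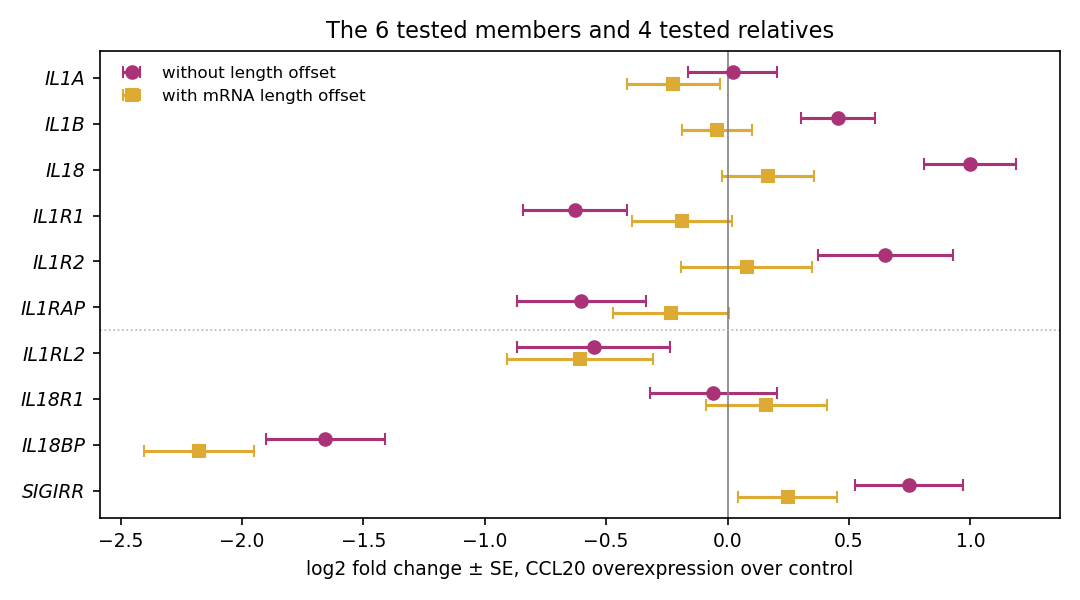
Log2 fold change ± SE of the 6 tested members (above the dotted line) and the 4 tested relatives (below it), without (circles) and with (squares) the mRNA length offset. With the offset the members lie between -0.23 and 0.17, and IL18BP lies at -2.18.

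Other genes of the family were taken from a list of 13, of which 10 had a row and 4 were tested. IL18BP (ENSG00000137496; chromosome 11, 71998541 to 72005715, plus strand), the soluble protein that traps interleukin-18, fell from 4.16 and 3.94 FPKM in the controls to 0.949 and 1.26 FPKM with overexpression, or from 246 and 304 to 63 and 92 counts. The groups lay far apart relative to the spread within each. This was a 3.15-fold fall (log2 fold change -1.66, SE 0.25, edgeR adjusted p = 0.00477), and all 200 coding genes nearest in mRNA length had a larger log2 fold change. With the length offset it was -2.18 (SE 0.23, edgeR adjusted p = 0.00661). The call held under each of the 20 alternatives, at -2.37 to -1.27 and adjusted p of at most 0.0109. The ratio of IL18 to IL18BP, chosen after its values were seen, was 1.1 and 1.11 in the controls and 8.33 and 6.01 with overexpression (log2 difference 2.68, exact permutation p = 0.333, the smallest possible).

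The IL18BP value carries a limit of annotation. Of its 4323 exonic nt, 675 overlap exons of NUMA1 on the opposite strand, and the strand setting of the counting is not given, so reads there cannot be assigned with certainty. NUMA1, a nuclear and spindle protein gene, was at 11.8 and 13.1 FPKM in the controls and 4.76 and 7.02 FPKM with overexpression, a 1.82-fold fall (edgeR adjusted p = 0.0250) that was not past the threshold with the offset (adjusted p = 0.676). Its part in the IL18BP value was not tested.

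SIGIRR, a receptor that restrains signalling of the family, was at 2.91 and 3.62 FPKM in the controls and at 4.4 and 5.10 FPKM with overexpression. It rose 1.68-fold (edgeR adjusted p = 0.0364), with a median log2 fold change of 0.49 among its length neighbours against its own 0.75, and was not past the threshold with the offset (0.25, adjusted p = 0.515). The interleukin-18 receptor chain IL18R1 was at 3.81 and 2.98 FPKM in the controls and 3.55 and 2.15 FPKM with overexpression, and the groups overlapped (log2 fold change -0.06, edgeR adjusted p = 0.879). Its partner chain IL18RAP had 0, 2, 0 and 0 counts. IL1RL2, the interleukin-36 receptor, was at 1.55 and 1.97 FPKM against 0.961 and 1.12 FPKM (log2 fold change -0.55, edgeR adjusted p = 0.205). The interleukin-33 receptor IL1RL1 had 6, 9, 3 and 1 counts, and IL37, IL36A, IL36RN and IL1RAPL1 had at most 9 counts in any library. IL36B, IL1F10 and IL1RAPL2 have no value here.

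Of the genes that pass the signal on from the receptor most did not pass the test: 0 of 18 tested members of a list of 20 were higher and 3 were lower, with a median log2 fold change of -0.31. Over all genes tested 16.5% were called higher and 15.7% lower, so the share of lower calls in the list is near the background. MAP3K3, a kinase upstream of NF-kB, fell 1.79-fold, UBE2V1, a partner in building ubiquitin chains, 1.77-fold, and TAB3, an adaptor of the kinase TAK1, 1.56-fold (edgeR adjusted p = 0.0178, 0.0406 and 0.0446). IRAK1, the most abundant of the list, was at 60.5 and 66.2 FPKM in the controls and 45.2 and 59.8 with overexpression (edgeR adjusted p = 0.845), and TAB2 was next in level (log2 fold change -0.22, edgeR adjusted p = 0.408). MYD88, the adaptor on which the receptors depend, was at 6.74 and 6.70 FPKM against 4.72 and 4.29 FPKM (log2 fold change -0.37, edgeR adjusted p = 0.139). With the offset UBE2V1 stayed lower (-1.07, edgeR adjusted p = 0.0437) and UBE2N, its enzyme partner, was past the threshold as higher (0.82, adjusted p = 0.0285), although its FPKM overlapped between groups; MYD88 and UBE2N were named after their values were seen.

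Genes of cytokine maturation and release were higher in 7 and lower in 2 of 17 tested members of a list of 25. Over all genes tested, 16.5% were called higher and 15.7% lower. With the mRNA length offset, as given below, 0 of the 17 were past the threshold, though other length offsets called some of the list. The median log2 fold change of these 17 was 0.55, and their mRNAs had a median of 1921 nt. PYCARD, the inflammasome adaptor, rose 2.57-fold from 3.56 and 4.31 to 7.61 and 9.92 FPKM (edgeR adjusted p = 0.00780). CARD16, a regulator of caspase-1, rose 2.34-fold, and GSDMD, whose fragment forms the pore through which the cytokines leave, 1.96-fold from 14.6 and 15.3 to 21.2 and 29.4 FPKM (edgeR adjusted p = 0.0136 for both). The others that were higher were HAX1, NINJ1, CAPNS1 and CASP1, the caspase itself, at 1.92-, 1.80-, 1.64- and 1.46-fold. NLRP1, the inflammasome sensor of keratinocytes, and PANX1, a membrane channel, fell 1.51- and 1.41-fold (edgeR adjusted p = 0.0370 and 0.0457). CAPN2, a calpain and with CAPNS1 the most abundant of the list, was at 85.1 to 94.3 FPKM in all libraries (edgeR adjusted p = 0.398). CASP1 and CARD16 are close relatives in sequence, so their counts may be shared.

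Genes that interleukin-1 induces in epithelium were higher in 5 and lower in 4 of 19 tested members of a list of 22. The shares over all genes tested were 16.5% higher and 15.7% lower. The directions split by length. The 5 higher genes had mRNAs of 787 to 1354.5 nt and the 4 lower ones of 3252 to 4583.5 nt. LCN2, an iron-binding defence protein, rose 1.93-fold, CSF2, the growth factor of granulocytes and macrophages, 1.90-fold and IL6 1.90-fold (edgeR adjusted p = 0.0232, 0.00813 and 0.0194). The neutrophil chemokines CXCL2 and CXCL1 also rose, 1.78- and 1.62-fold. ICAM1, the adhesion molecule for leukocytes, fell 1.77-fold from 66.3 and 64.0 to 32.6 and 31.2 FPKM, and the NF-kB regulators NFKBIZ and TNFAIP3 fell 1.70- and 1.56-fold (edgeR adjusted p = 0.00803, 0.0134 and 0.0279). The remaining lower gene, TNFAIP2, fell 1.50-fold. IER3 and CCL2, the most abundant of the list, had log2 fold changes of 0.54 and 0.45 (edgeR adjusted p = 0.0678 and 0.0909).

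**Figure D5:**
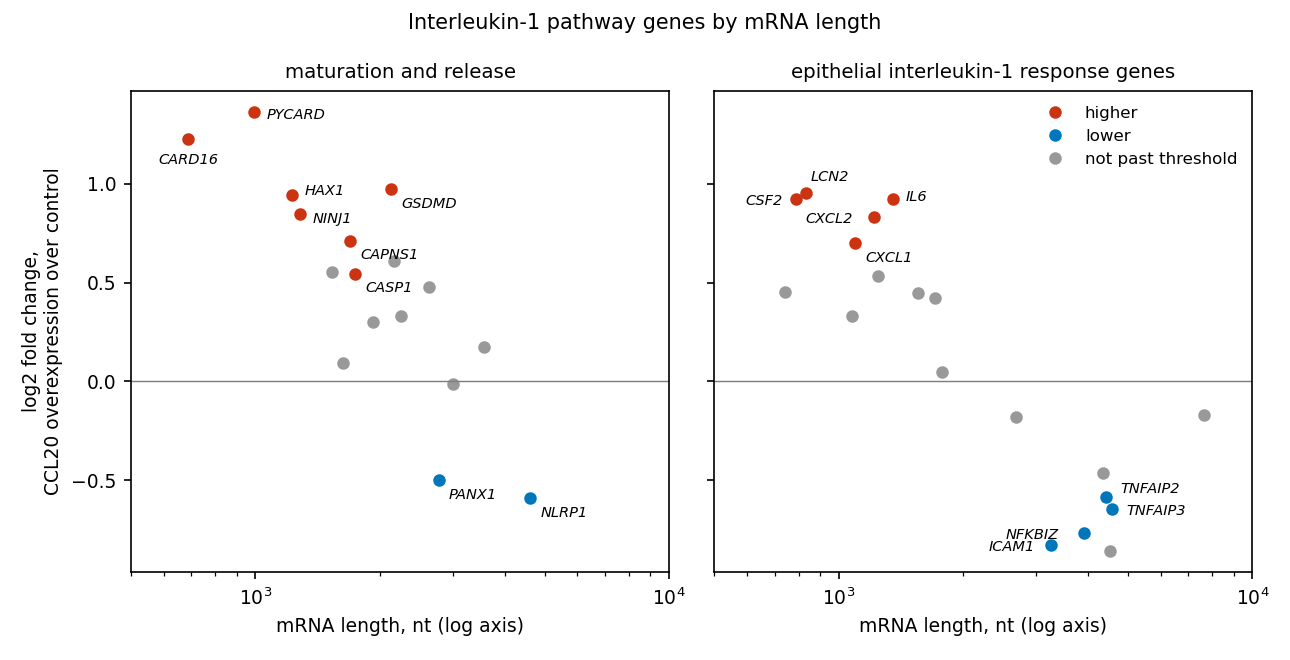
Log2 fold change against principal mRNA length (log axis) for the 17 tested genes of maturation and release (left) and the 19 tested interleukin-1 response genes (right), coloured by the edgeR call. In both panels the genes called higher have the shorter mRNAs, up to 2129 nt on the left and 1354.5 nt on the right, and those called lower the longer ones.

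With the mRNA length offset, 0 of the 17 maturation and release genes were past the threshold in edgeR, though 6 had an unadjusted p under 0.05. Of the 19 response genes 1 was, ICAM1, as lower (log2 fold change -0.71, edgeR adjusted p = 0.0289). GSDMD, at 0.72, missed it (edgeR adjusted p = 0.0660). The call of ICAM1 ended without negative control replicate 1 or 2, in both fits (edgeR adjusted p from 0.141 to 0.610), at log2 fold changes of -0.85 to -0.69. Over the 4 lists 13 genes were higher and 10 lower of 58 tested without the offset, and 1 was higher and 3 were lower with it. Over all genes tested 32.2% were called without the offset and 6.82% with it, so the count with the offset is near the background. These counts are for the mRNA length offset on the tested genes. With the exonic length offset 7 of the maturation and release genes were called, beside 1932 of all 12168 genes. The mRNA length offset on every coding gene with a count called 6 of that list, beside 2612 of 16662 genes.

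The profile of IL1B over the 4 libraries, as log2 CPM centred on its mean, was closest to those of YWHAE, WDR77 and ENTR1 among 10561 coding genes outside the family (Euclidean distance 0.0139, 0.0258 and 0.0350). The profile of IL1RAP was closest to those of FAR1, ZNF189 and SMARCAD1 (0.0213, 0.0600 and 0.0627). With 4 libraries such closeness is common, as 83 genes lay within 0.1 of IL1B and 15 within 0.1 of IL1RAP.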

How the data were processed

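Polyadenylated RNA of 4 CAL27 libraries was sequenced from 1.5 µg of RNA each, per the labels' protocols. HISAT2, HTSeq 0.13.5 and GRCh38 are listed in the submitters' processing notes, which give neither the annotation nor the strand setting. The count deposited by the authors is in whole reads for each gene, without normalization. The FPKM deposited by the authors divides the count by a gene length and by the library's total count. All 29437 identifiers and names matched GENCODE 29, used for positions and for mRNA length (median of the principal transcripts). SOD2, on 2 rows, was read from the one with more counts.

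The members and gene lists were chosen with earlier results of these data known. Genes named from the lists are the 3 with the largest called change in each direction and the 2 most abundant, beside all relatives of the family. HAX1, NINJ1, CASP1, CXCL1, CXCL2 and TNFAIP2, which complete the called genes of their lists, and NUMA1, MYD88 and UBE2N fall outside this rule and were chosen after their values were seen.

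edgeR 4.0.16 (R 4.3.3, TMM factors, glmQLFit and glmQLFTest, two-sided, Benjamini-Hochberg) was run on genes with a mean of at least 1 FPKM at a threshold of 0.05. The code was also tried on simulated data with the same spread in both groups. These libraries differ in that, so the trial does not measure error here. The offset is a natural spline with 5 degrees of freedom of log2 mRNA length on each library's deviations in log2 CPM, fitted on these same coding genes. Fold changes are on TMM-scaled counts and differ from ratios of FPKM. DESeq2 1.42.0, limma 3.58.1, other scalings, filters and offsets, the replicate number as a block and the omission of each library were the alternatives. Replicates were compared before use: their counts differed by more than sampling noise (chi-square per gene 6.45 for the controls, 38.0 for overexpression). Total counts are in the report, and floors of 3 counts cover counting error only.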

Additional observations from a re-analysis of the deposited data

How the results depend on the processing

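Called genes over the whole table numbered 3915; with the mRNA length offset they were 721, with an exonic length offset 1932, and leaving out each library in turn 650 to 7579. The split of higher to lower was 2010 to 1905, 1275 to 2963 on library totals, 500 to 4516 on the TPM scale (median log2 fold change -0.20 and -0.49), 1245 to 2608 with limma on log2(FPKM + 1), 1221 to 2536 with limma on log2(FPKM + 0.5), and 1211 to 721 with the exonic length offset. All of these fits tested 12168 genes. DESeq2 called 4127 of the same 12168 genes. With edgeR, 4310 of 15846 genes were called after filterByExpr and 5180 of 29437 on every gene with a count. Called members numbered 1; they were 2 with DESeq2, on library totals, on the TPM scale, with filterByExpr and with limma on log2(FPKM + 1), 3 on every gene with a count, 0 with either length offset (edgeR; unadjusted p under 0.05 for 0 and 1), and 0 to 4 leaving out each library. Pathway genes called numbered 23; they were 4 with the mRNA length offset, 10 with the exonic length offset and 1 to 38 leaving out each library. In fits without a control library the spread comes from the overexpression pair, which varies more, and the cause of the lost calls was not tested.

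Replicate numbers are shared between groups, but nothing says that they mark a shared culture or day; deviations of same-numbered libraries correlated at 0.27. The replicate block gave 5758 called genes, 4 members (IL18, IL1B, IL1R1 and IL1RAP) and 34 pathway genes, and the replicate block with the mRNA length offset gave 2067, 0 (edgeR; 0 at an unadjusted p under 0.05) and 10. Chosen after seeing the data was the mRNA length offset without each library, with 133 to 4741 called genes (133 and 179 without control replicates 1 and 2), 0 to 2 members and 1 to 32 pathway genes; IL1A turned to -0.45 and was called without overexpression replicate 1. On every coding gene with a count the mRNA length offset called 2612 of 16662 genes, 0 members (edgeR, 1 at an unadjusted p under 0.05) and 12 pathway genes. IL18 kept its positive sign in all 20 alternatives and its call in 9, and IL1R2 was called in 0. The IL1R2 to IL1R1 difference in log2 ratio was 1.09 to 1.45 leaving out each library, and that of IL1RN to the agonists was -0.81 to 0.16. At 30 to 78 counts per library for IL1RN and IL1R2, depth limits what can be seen.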
